A study of Mus musculus with 7 samples.

Results

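The 39 genes described here encode the machinery of autophagy and mitophagy, and they were taken from the 23347 genes of the liver count table by a list of symbols, not by a threshold on their values. All 39 were in the table, and all 39 were among the 15179 genes with enough counts to be tested. RNA was sequenced from whole livers of 7 male C57BL/6 mice, with 1 library per mouse. The mice had been started as young adults on the CDAHFD, a high-fat diet made from amino acids without choline that brings on steatohepatitis, and were fed it for 15 weeks. Each mouse carried floxed *B4galt1* alleles. The 4 control mice were *B4galt1* flox/flox littermates, which the sample labels call WT. The other 3 mice, labelled B4-HKO, are given here under the study's name for that label, *B4galt1* hep-/-. That name stands for floxed alleles with Cre recombinase under the albumin promoter, used in the study to delete the gene in hepatocytes. *B4galt1* encodes a Golgi galactosyltransferase. The comparison asked how liver transcripts differed between these groups on the diet, and livers of chow-fed mice were not analysed here.

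In autophagy, a membrane sheet grows around cytoplasm, closes into an autophagosome and fuses with a lysosome, where the contents are degraded. The ULK complex starts the process, a class III PI3 kinase marks the membrane with PI3P, and a pair of ubiquitin-like conjugation reactions attach ATG8 proteins (the LC3 and GABARAP proteins) to the membrane, where they bind receptors carrying cargo. Mitophagy is the same process directed at mitochondria, and in the liver autophagy is known for the turnover of mitochondria, glycogen and lipid droplets.

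Total counts were 37838654 to 39668509 in *B4galt1* flox/flox libraries and 30608271 to 34586588 in those labelled *B4galt1* hep-/-. Values per mouse are given as CPM, TMM-normalized counts scaled to a common library size, and levels of different genes were compared only as FPKM, which also divides by gene length. *B4galt1* itself was at 48.7, 53.0, 49.2 and 51.6 CPM in *B4galt1* flox/flox replicates 1 to 4 and at 28.4, 23.9 and 53.7 CPM in replicates 1 to 3 labelled *B4galt1* hep-/-. Replicate 3 of that group was thus above every control, against its label, so every direction given here is between labelled groups. The log2 difference of -0.52 (SE 0.26) did not pass the test (edgeR quasi-likelihood, Benjamini-Hochberg adjusted p = 0.181; -0.96, adjusted p = 0.0139, without that library). Transcripts encoded by the mitochondrial genome made up 5.79% ± 1.70 (SD, n = 4) of control counts and 19.7% ± 4.58 (n = 3) of those in livers labelled *B4galt1* hep-/- (exact permutation test, two-sided, p = 0.0286, the smallest that 4 against 3 mice allow). Hepatocyte markers were abundant in every library, and their summed CPM overlapped between the groups. The p-values rest on the spread between these mice, and those of edgeR draw on the spread of other genes as well as the gene's own.

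Of the 39 autophagy genes, 5 were lower and 1 was higher in livers labelled *B4galt1* hep-/-. The lower genes were *Atg13* of the ULK complex, *Uvrag* of the class III PI3 kinase, the ubiquitin-like modifier *Atg12*, and *Gabarapl1* and *Gabarapl2* of the ATG8 family, and the higher gene was *Atg16l2*, a paralogue of the conjugation scaffold *Atg16l1*. Calls needed an adjusted p below 0.05 together with a log2 difference of more than 0.58 in size. The 6 called genes were 15.4% of the 39, against 15.8% of all tested genes, so the share called was near the background. By direction, 12.8% of the 39 were called lower against 7.83% of all tested genes, and 2.56% were called higher against 8.0%. The log2 differences of the 39 genes ran from -0.87 to 1.07 with a median of -0.22, beside a median of 0.02 over all tested genes. Of the 39, 27 (69.2%) were negative against 48.7% of all genes. Over all tested genes, the log2 difference fell with the control level (Spearman rho with FPKM -0.31). The 39 genes had a median control level of 9.84 FPKM, against 3.09 over all tested genes. The part of level in these differences and calls was not tested. In 13 of the 39 (33.3%) the mice of both groups did not overlap, against 28.6% of all tested genes. Without *B4galt1* flox/flox replicate 2 or replicate 3, none of the 39 was called by edgeR, and 9 had an unadjusted p under 0.05 in either case. With all mice that number was 14, or 35.9% of the 39 against 32.9% of all tested genes, and DESeq2 called 7 genes, *Sqstm1* besides the 6. The count was 1 without *B4galt1* flox/flox replicate 4 or without replicate 2 labelled *B4galt1* hep-/-, and it was 3 without replicate 3 of that group.

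**Figure D1:**
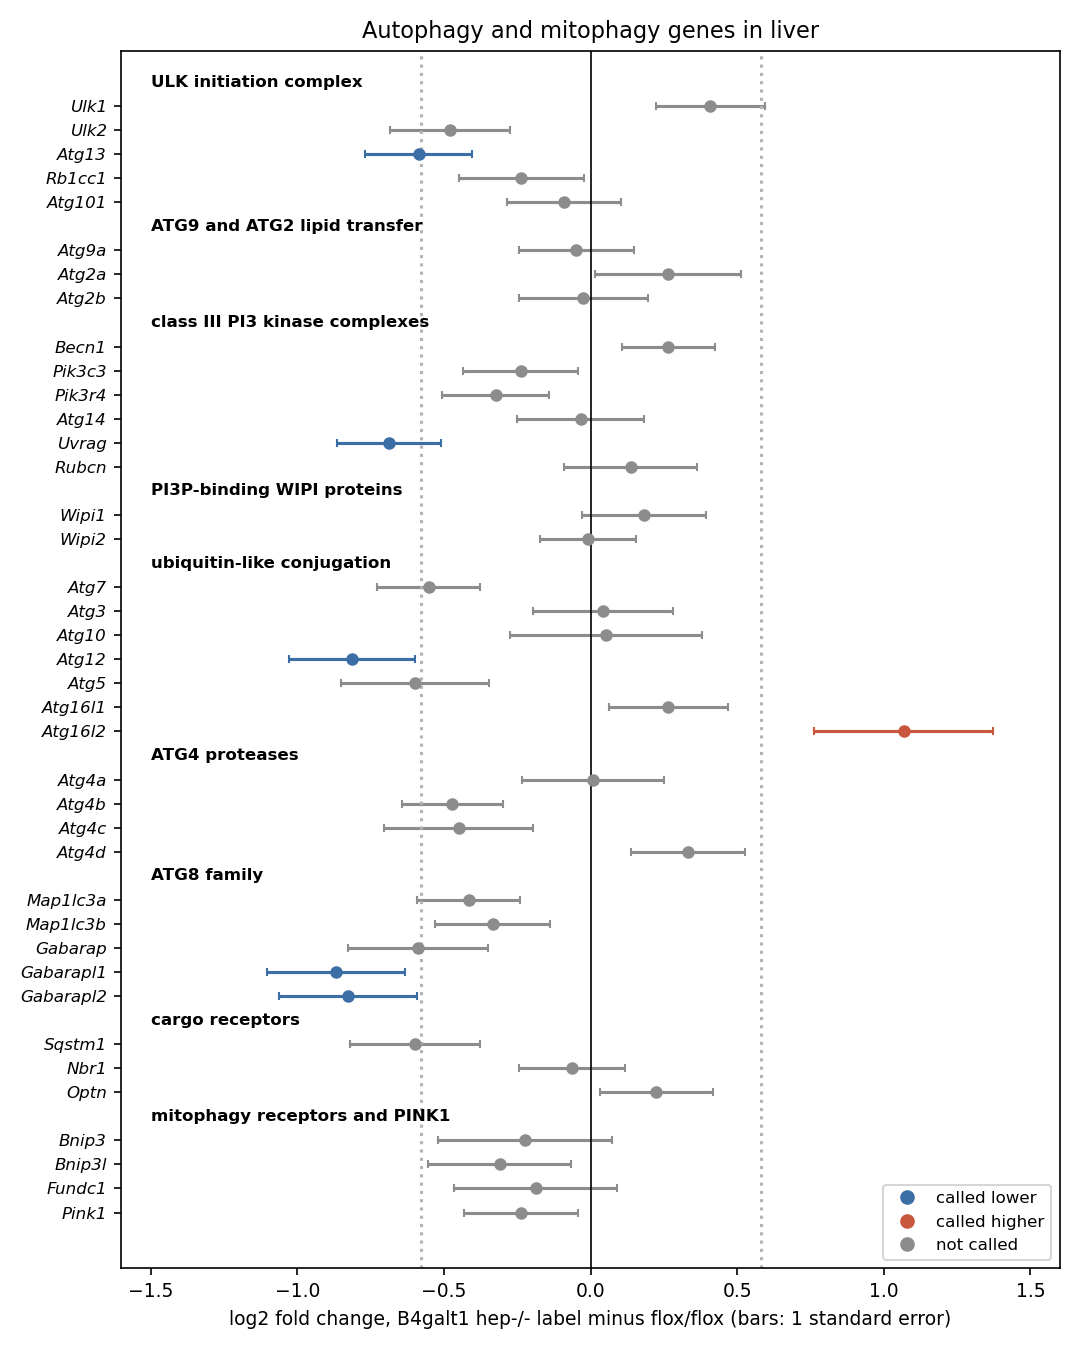
Log2 fold change of each of the 39 genes, livers labelled *B4galt1* hep-/- minus *B4galt1* flox/flox, grouped by role, with bars of 1 standard error and dotted lines at 0.58 on either side of 0. The called genes are coloured, 5 lower and 1 higher, and the other 33 are grey.

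The ATG8 family encodes the small proteins that are attached to the autophagosome membrane. All 5 of its genes had negative log2 differences, from -0.87 to -0.33, of which 2 were called. Their summed FPKM, with library totals corrected by TMM, was 411 to 587 in *B4galt1* flox/flox livers and 250.4 to 384 in livers labelled *B4galt1* hep-/-, with no overlap. The sums of the cargo receptors did not overlap either (159 to 185 against 115 to 152), and those of the other 7 roles did. On FPKM as deposited, without that correction, the sums of the conjugation genes (93.2 to 102 against 68.8 to 86.4) and of the ATG4 proteases (16.9 to 18.6 against 14.9 to 16.8) were apart too. For the ATG8 genes, none of the 5 signs changed under any of the 18 alternative settings. Both called genes are GABARAP-type, and the 250 bases before their transcription start in the RefSeq table (GRCm38.p6, a different build from the GRCm39 of the counts) are shown with CpG dinucleotides in capitals, because these are the ATG8 genes that passed the test.
Gabarapl1, chr6:129532942-129533191, + strand: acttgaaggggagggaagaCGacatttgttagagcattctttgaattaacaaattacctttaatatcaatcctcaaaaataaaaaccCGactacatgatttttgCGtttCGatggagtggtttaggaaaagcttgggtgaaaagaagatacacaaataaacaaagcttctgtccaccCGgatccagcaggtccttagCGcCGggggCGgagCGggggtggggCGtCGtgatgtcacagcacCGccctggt
Gabarapl2, chr8:111940453-111940702, + strand: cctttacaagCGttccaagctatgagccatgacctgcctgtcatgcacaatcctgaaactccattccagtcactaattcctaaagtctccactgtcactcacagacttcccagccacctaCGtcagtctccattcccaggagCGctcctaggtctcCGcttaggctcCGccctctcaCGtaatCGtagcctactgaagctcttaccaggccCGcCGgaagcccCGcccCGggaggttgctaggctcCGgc
Each of these windows holds 12 CpG dinucleotides, beside a median of 15 over the 36 promoters listed for the 39 genes and of 6 over the 32851 promoters of the table.

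*Gabarapl1* was at 229.7, 275, 378 and 307 CPM in *B4galt1* flox/flox replicates 1 to 4 and at 162, 128 and 198 CPM in replicates 1 to 3 labelled *B4galt1* hep-/-. Every mouse labelled *B4galt1* hep-/- lay below every control, and the log2 difference was -0.87 (SE 0.24; edgeR quasi-likelihood, Benjamini-Hochberg adjusted p = 0.0302). *Gabarapl2* was at 35.6, 42.4, 55.4 and 39.2 CPM in controls and at 23.6, 17.6 and 31.7 CPM in the other group. Its groups did not overlap either, and its log2 difference was -0.83 (SE 0.24; edgeR adjusted p = 0.0361). In both genes *B4galt1* flox/flox replicate 3 was the highest mouse and replicate 2 labelled *B4galt1* hep-/- the lowest. Both calls were lost without *B4galt1* flox/flox replicate 2, 3 or 4 and without replicate 1 or 2 labelled *B4galt1* hep-/-. Without these libraries in that order, *Gabarapl1* was at -0.91, -0.73, -0.85, -0.88 and -0.72, and *Gabarapl2* at -0.84, -0.69, -0.87, -0.82 and -0.64.

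The other ATG8 genes did not pass the test. *Gabarap* was at 176, 233, 229.7 and 247 CPM in controls and at 162, 99.2 and 181 CPM in livers labelled *B4galt1* hep-/-. The groups overlapped, because control replicate 1 was below replicate 3 of the other group. The log2 difference was -0.59 (SE 0.24, edgeR adjusted p = 0.110). Limma on FPKM called this fall, on a scale not corrected for composition where the median of all genes was -0.14 or -0.18. *Map1lc3b*, which encodes the LC3 protein most used to mark autophagosomes, was at 131, 144, 191 and 137 CPM against 112, 118 and 129 CPM. *Map1lc3a* was at 38.3, 34.6, 39.7 and 46.0 CPM against 33.1, 27.3 and 28.7 CPM. The groups did not overlap in either LC3 gene, with log2 differences of -0.33 (SE 0.20; edgeR adjusted p = 0.259) and -0.42 (SE 0.18; edgeR adjusted p = 0.124).

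Per length, *Gabarap* (204 FPKM ± 17.5, SD, n = 4) and *Gabarapl1* (174 ± 37.7) were the ATG8 genes with the highest levels in control livers, and their mice overlapped. *Map1lc3b* (61.4 ± 13.3), *Gabarapl2* (45.9 ± 10.4) and *Map1lc3a* (39.3 ± 4.07) followed below both, with overlap between neighbours in that order. *Gabarapl1* took 31.3% to 36.3% of the summed ATG8 FPKM in the control mice and 27.3% to 29.1% in mice labelled *B4galt1* hep-/-, so its share did not overlap. The share of *Map1lc3b* was the other way round, at 10.1% to 12.7% and 13.1% to 18.3%, also without overlap. The shares of the other 3 genes overlapped, that of *Gabarap* at 39.1% ± 3.29 (n = 4) and 40.1% ± 4.21 (n = 3). These shares depend on the members of the family alone and not on the scaling of the library.

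**Figure D2:**
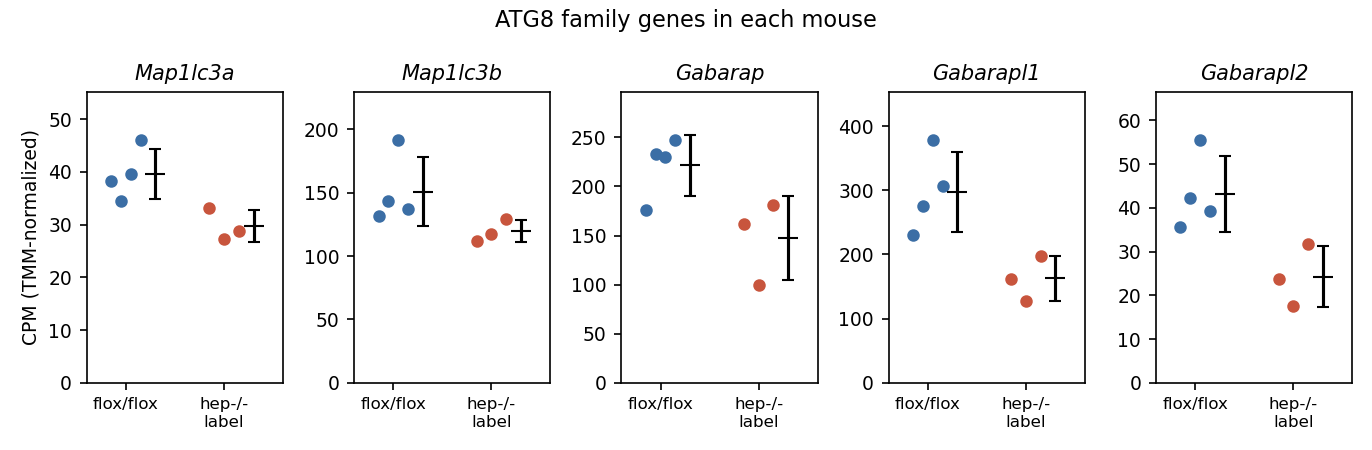
CPM of the 5 ATG8 genes in each mouse, with the mean and SD beside each group. In all panels but that of *Gabarap*, each of the 3 mice labelled *B4galt1* hep-/- lies below each of the 4 *B4galt1* flox/flox mice.

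In the ULK initiation complex, the adaptor subunit *Atg13* was lower in livers labelled *B4galt1* hep-/-. It was at 32.1, 30.1, 29.8 and 25.5 CPM in controls and at 17.0, 22.9 and 18.8 CPM in the other group. The groups did not overlap, and the log2 difference of -0.59 (SE 0.18) was close to both thresholds (edgeR quasi-likelihood, Benjamini-Hochberg adjusted p = 0.0481). The adjusted p rose above 0.05 without any one of the mice other than replicate 2 labelled *B4galt1* hep-/-, at 0.0868, 0.130, 0.0846 and 0.0606 without control replicates 1 to 4 and at 0.133 and 0.0986 without replicates 1 and 3 of the other group. With all mice the call was also lost with RLE (0.0518) and upper-quartile (0.0658) scaling, with filters of 1 count in any mouse (0.0575) and 10 counts in every mouse (0.0541), and in limma on log2(FPKM + 0.1) (0.0521). *Ulk1*, the kinase of the complex, was at 58.5, 52.5, 55.4 and 50.4 CPM in controls and at 59.7, 88.8 and 67.2 CPM in mice labelled *B4galt1* hep-/-, all of them above the controls by as little as the gap from 58.5 to 59.7. Its log2 difference of 0.41 (SE 0.19) did not pass (edgeR adjusted p = 0.151), and that of its paralogue *Ulk2* was of the opposite sign, -0.48 (SE 0.21; edgeR adjusted p = 0.128). The scaffold *Rb1cc1* (-0.24) and the *Atg13* partner *Atg101* (-0.09) had overlapping groups.

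The class III PI3 kinase complexes had members on either side of 0. *Uvrag*, the subunit of the complex that acts on endosomes and late autophagosomes, was at 28.5, 31.1, 34.2 and 27.8 CPM in controls and at 21.6, 17.4 and 17.7 CPM in livers labelled *B4galt1* hep-/-. These 3 mice were below the controls, and the log2 difference of -0.69 (SE 0.18) had the smallest adjusted p of the 39 genes (edgeR adjusted p = 0.0258). The call was lost without control replicate 2 (-0.68) or 3 (-0.63) and without replicate 2 (-0.63) or 3 (-0.65) of the other group. *Becn1*, the shared Beclin subunit, was at 58.2, 59.6, 61.5 and 62.2 CPM in controls and at 72.6, 71.2 and 73.9 CPM in mice labelled *B4galt1* hep-/-. Its groups were tight and apart, yet the log2 difference of 0.27 (SE 0.16) did not pass the test (edgeR adjusted p = 0.268). That SE draws on the spread of other genes too. The regulatory subunit *Pik3r4* was at 18.8, 15.5, 14.8 and 15.2 CPM against 12.4, 13.2 and 12.9 CPM, without overlap (log2 difference -0.32, SE 0.18; edgeR adjusted p = 0.241). The catalytic subunit *Pik3c3* (-0.24), the autophagy-specific subunit *Atg14* (-0.03) and the inhibitor *Rubcn* (0.14) overlapped between the groups.

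The lipid transfer genes *Atg9a* (-0.05), *Atg2a* (0.26) and *Atg2b* (-0.03), which supply the growing membrane, and the PI3P-binding genes *Wipi1* (0.18) and *Wipi2* (-0.01) gave no call. None of these 5 genes had an unadjusted p under 0.05 in edgeR, and DESeq2 called none.

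In the conjugation machinery, the modifier *Atg12* was lower and *Atg16l2* was higher in livers labelled *B4galt1* hep-/-. *Atg12*, which is joined to ATG5, was at 29.3, 38.0, 38.4 and 35.3 CPM in controls and at 22.3, 14.1 and 23.7 CPM in the other group. The groups did not overlap, and the log2 difference was -0.82 (SE 0.21; edgeR quasi-likelihood, Benjamini-Hochberg adjusted p = 0.0275). The call was lost without control replicate 2 (-0.78), 3 (-0.77) or 4 (-0.81) and without replicate 2 labelled *B4galt1* hep-/- (-0.62). *Atg5* was at 37.2, 55.2, 52.4 and 65.3 CPM in controls and at 38.7, 23.0 and 42.3 CPM in the other group, where control replicate 1 fell within the range of the latter (log2 difference -0.60, SE 0.25; edgeR adjusted p = 0.121). *Atg7*, the E1-like enzyme of both reactions, was at 36.4, 32.6, 33.7 and 36.4 CPM against 28.2, 21.5 and 21.5 CPM. All 3 mice labelled *B4galt1* hep-/- were below the controls, but its log2 difference of -0.55 (SE 0.18) missed both thresholds (edgeR adjusted p = 0.0531). It was -0.71, with an adjusted p of 0.0429, without replicate 1 of that group. Limma on FPKM, which is not corrected for composition, called both *Atg5* and *Atg7* lower. The E2-like enzymes *Atg3* (0.04) and *Atg10* (0.05) overlapped between the groups.

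*Atg16l2* was at 18.5, 9.91, 7.54 and 14.8 CPM in controls and at 18.0, 33.3 and 28.5 CPM in livers labelled *B4galt1* hep-/-. Although it was called (log2 difference 1.07, SE 0.31; edgeR adjusted p = 0.0375), the groups overlapped, since control replicate 1 was above replicate 1 of the other group. The call was lost without control replicate 2 (0.96), 3 (0.88) or 4 (1.15) and without replicate 2 (0.87) or 3 (1.01) labelled *B4galt1* hep-/-, and it was not made by limma on FPKM. *Atg16l1*, whose product carries the ATG12-ATG5 conjugate to the membrane, was at 29.8 to 37.8 CPM in controls and 30.8 to 49.8 CPM in the other group (log2 difference 0.26, SE 0.20; edgeR adjusted p = 0.392). The log2 ratio of the counts of *Atg16l1* to *Atg16l2* within a mouse was 1.41 ± 0.47 (SD, n = 4) in controls and 0.54 ± 0.43 (n = 3) in the other group. Not divided by gene length, this ratio compares the groups and not the levels of the genes. The ratios did not overlap, but their difference of -0.86 (SE 0.34) gave an exact permutation p of 0.0857 (two-sided; adjusted p = 0.343 over 8 pairs of paralogues).

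The log2 ratio of *Ulk1* to *Ulk2* differed by 0.85 (SE 0.32) with the same exact p of 0.0857, and its groups overlapped. None of the 8 pairs reached an unadjusted exact p under 0.05. The smallest difference in size was that of *Bnip3* to *Bnip3l* (0.01, SE 0.25), followed by *Gabarapl1* to *Gabarapl2* (-0.02, SE 0.09). For the latter pair the standard error was small beside the fall of each gene, so their ratio was measured more closely than their levels.

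**Figure D3:**
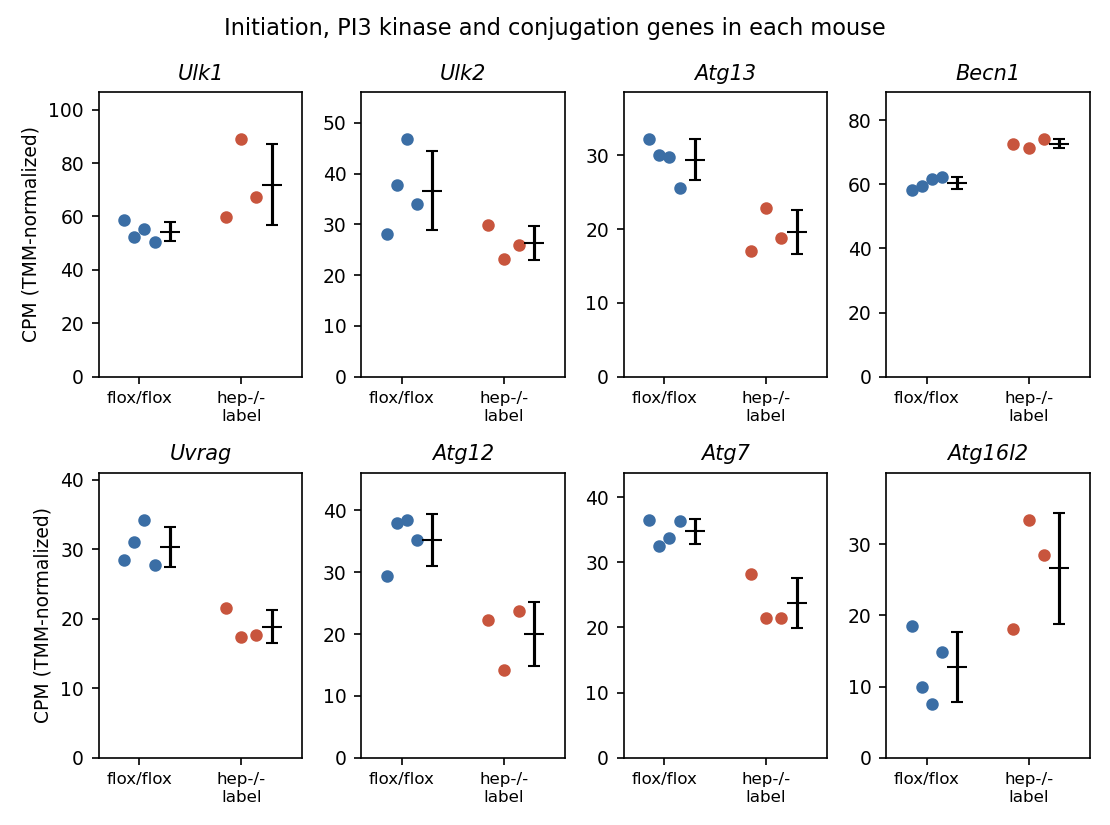
CPM in each mouse of genes of the ULK complex, the PI3 kinase complexes and the conjugation machinery, with the mean and SD beside each group. *Becn1* and *Ulk1* lie higher in the 3 mice labelled *B4galt1* hep-/-, *Atg13*, *Uvrag*, *Atg7* and *Atg12* lie lower, and the groups overlap in *Ulk2* and *Atg16l2*.

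The ATG4 proteases, which trim ATG8 proteins before and after conjugation, gave no call in edgeR or DESeq2, and 1 of the 4 had an unadjusted p under 0.05. That gene, *Atg4b*, was at 22.4, 22.1, 25.1 and 20.6 CPM in controls and at 15.1, 16.4 and 17.2 CPM in livers labelled *B4galt1* hep-/-, without overlap (log2 difference -0.47, SE 0.17; edgeR adjusted p = 0.0813). *Atg4a* (0.01), *Atg4c* (-0.45) and *Atg4d* (0.33) overlapped.

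Among cargo receptors, *Sqstm1*, which encodes p62, a receptor for ubiquitinated cargo and a substrate of autophagy, was at 518, 662, 533 and 595 CPM in controls and at 438, 282 and 422 CPM in livers labelled *B4galt1* hep-/-. The groups did not overlap, and the log2 difference of -0.60 (SE 0.22) did not pass in edgeR (adjusted p = 0.0858). DESeq2, voom with sample weights and limma on FPKM, which is not corrected for composition, each called it lower. *Nbr1* (-0.06) and *Optn* (0.22), the other receptors of this kind among the 39, overlapped between the groups.

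The mitophagy genes had negative log2 differences, within 1 SE of 0 for *Bnip3* and *Fundc1* and beyond it for *Bnip3l* and *Pink1*, and none of the 4 was called by edgeR or DESeq2 or had an unadjusted p under 0.05 in edgeR. *Bnip3*, a mitochondrial outer membrane receptor that hypoxia induces, was at 224, 312, 369.9 and 414 CPM in controls and at 315, 163 and 370.0 CPM in livers labelled *B4galt1* hep-/-. Its range in that group covered most of the control range (log2 difference -0.22, SE 0.30; edgeR adjusted p = 0.633), and without replicate 2 of that group the difference was 0.05. Its paralogue *Bnip3l* was at 76.9, 109, 153 and 112 CPM in controls and at 103, 72.4 and 97.2 CPM in the other group (log2 difference -0.31, SE 0.24; edgeR adjusted p = 0.401). *Pink1*, the kinase that accumulates on damaged mitochondria, was at 185, 193, 194 and 215 CPM against 198, 135 and 168 CPM (log2 difference -0.24, SE 0.19; edgeR adjusted p = 0.424). In each of these genes the groups overlapped, and replicate 2 was the lowest mouse of the group labelled *B4galt1* hep-/-. *Fundc1* was at -0.19, with overlap. The higher share of mitochondrially encoded transcripts in that group stands beside these values, and its part in them was not tested.

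**Figure D4:**
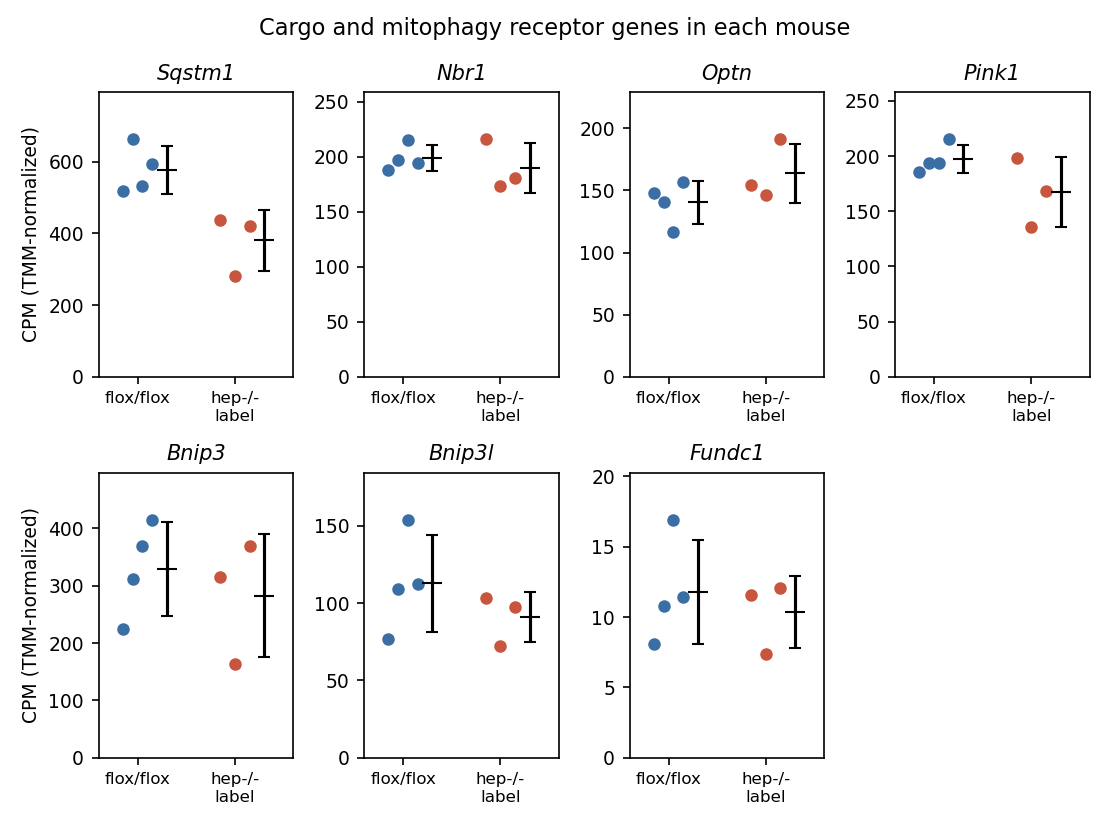
CPM in each mouse of the 3 cargo receptor genes, the mitophagy receptor genes and *Pink1*, with the mean and SD beside each group. The groups are apart in *Sqstm1* alone.

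Among the 39 genes, the highest levels per length in control livers after *Gabarap* were those of *Bnip3* (193 FPKM ± 38.2, SD, n = 4), *Gabarapl1* and *Sqstm1* (105 ± 8.38). Replicate 2 was the lowest mouse of the group labelled *B4galt1* hep-/- in 24 of the 39 genes, and replicate 1 was the lowest control in 20 of 39. With both of these mice left out, an alternative chosen after seeing the data, 2 of the 39 genes were called, *Atg12* and *Gabarapl1*, both lower.

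The hexamer CACGTG, the core E-box that TFEB and other basic helix-loop-helix factors can bind and that reads the same on both strands, was searched in the 250 bases before the transcription start. Promoters of 32 of the 39 genes were in the RefSeq table, and 5 of these 32 held it, against 6.86% of the 27025 genes and 6.02% of the 32851 promoters of the table. The stretches around it are shown on the gene's strand with the hexamer in capitals, to set members that hold it beside their log2 differences.
Atg7, chr6:114670952-114670981, + strand: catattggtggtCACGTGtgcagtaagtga
Atg5, chr10:44268313-44268338, + strand: cggagcgcttgcCACGTGgtcttggt
Bnip3, chr7:138909597-138909626, - strand: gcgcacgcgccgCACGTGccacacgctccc
Rubcn, chr16:32868437-32868466, - strand: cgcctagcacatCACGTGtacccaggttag
Atg3, chr16:45158723-45158752, + strand: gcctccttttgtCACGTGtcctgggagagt
Atg3, chr16:45158746-45158775, + strand: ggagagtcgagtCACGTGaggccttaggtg
None of these 5 genes was called by edgeR or DESeq2, with log2 differences of -0.55 for *Atg7*, -0.60 for *Atg5*, -0.22 for *Bnip3*, 0.14 for *Rubcn* and 0.04 for *Atg3*, and 2 of them had an unadjusted p under 0.05. The windows of *Gabarapl1* and *Gabarapl2* hold no CACGTG. The forkhead heptamer GTAAACA, searched on both strands and not overlapping the hexamer, was in the window of 0 of the 32 genes and in 3.17% of all promoters.

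Genes that act around this machinery were taken from lists written with earlier results of these data known. Of 34 lysosomal genes, 15 (44.1%, against 7.83% of all tested genes) were called lower and none higher in livers labelled *B4galt1* hep-/-. The median log2 difference of the 34 was -0.66. The largest falls were those of *Psap* (-1.54), the saposin precursor, *Scarb2* (-1.53), a lysosomal membrane protein, the protease *Ctsd* (-1.47), the acid lipase *Lipa* (-1.40) and *Lamp1* (-1.36). The summed CPM of the 34 genes was 9103 to 11892 in controls and 4295 to 6157 in the other group. The count was 8 without control replicate 2 and 9 without replicate 2 labelled *B4galt1* hep-/-.

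Of 15 further receptors for selective autophagy, 8 (53.3%, against 7.83% of all tested genes) were called lower and none higher (median -0.63). They included *Ncoa4* (-1.55), which carries ferritin, *Stbd1* (-1.55), which binds glycogen, the endoplasmic reticulum receptors *Retreg2* (-1.31) and *Ccpg1* (-0.89), and *Ubqln2* (-0.90), which binds ubiquitin. The count was 4 without control replicate 2, and 5 without control replicate 3 or 4 or without replicate 1 or 2 of the other group. The 39 genes and these lists were not tested against each other.

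Of 26 further genes of autophagosome formation and fusion, 4 were called lower and 2 higher (median -0.09), 23.1% against 15.8% of all tested genes. *Tbc1d5* (-0.99) and the SNARE genes *Snap29* (-0.83) and *Ykt6* (-0.82) were among the lower genes, and *Vmp1* (1.24), needed for membrane formation at the endoplasmic reticulum, and *Vps16* (0.96) were higher. The count fell from 6 to 2 without control replicate 2 or replicate 2 of the other group, and to 3 without control replicate 3. Of 18 further mitophagy genes, *Vcp* (-0.90), an ATPase that extracts ubiquitinated proteins, was the 1 gene called (5.56%, median -0.32). Without replicate 3 labelled *B4galt1* hep-/-, 2 were called lower. Among 28 genes of MTORC1 and AMPK control of autophagy, *Flcn* (1.12) was called higher and *Prkaa2* (-1.07), a catalytic subunit of AMPK, lower (7.14%, median 0.06). Both shares lay below the 15.8% of all tested genes. None of the 4 TFEB family genes was called by edgeR or DESeq2, and *Tfeb* (0.56, SE 0.20; edgeR adjusted p = 0.0782), named after its values were seen, was the 1 gene with an unadjusted p under 0.05, while voom called 2 of the 4 higher.

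The macrophage markers that were called were lower, as were the called lysosomal and selective receptor genes. Of 14 macrophage markers, 8 (57.1%, against 7.83% of all tested genes) were called lower in livers labelled *B4galt1* hep-/- (median -1.12). The summed CPM of the 14 was 2087 to 4550 in controls and 1279 to 1716 in the other group, with none at 0 in all mice. Macrophages express the ATG8 and lysosomal genes too, and the part of this difference in the values above was not tested. In whole liver, fewer cells of a type and less RNA per cell cannot be told apart. Of 11 hepatocyte markers none was called by edgeR, with 3 at an unadjusted p under 0.05. DESeq2 called 2 (1 lower, 1 higher) and voom 3 (2 lower, 1 higher). Limma called 4 on log2(FPKM + 1), 3 lower and 1 higher, and 3 on log2(FPKM + 0.1), all lower. Without replicate 3 labelled *B4galt1* hep-/-, edgeR called 2 of the 11, both lower.

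**Figure D5:**
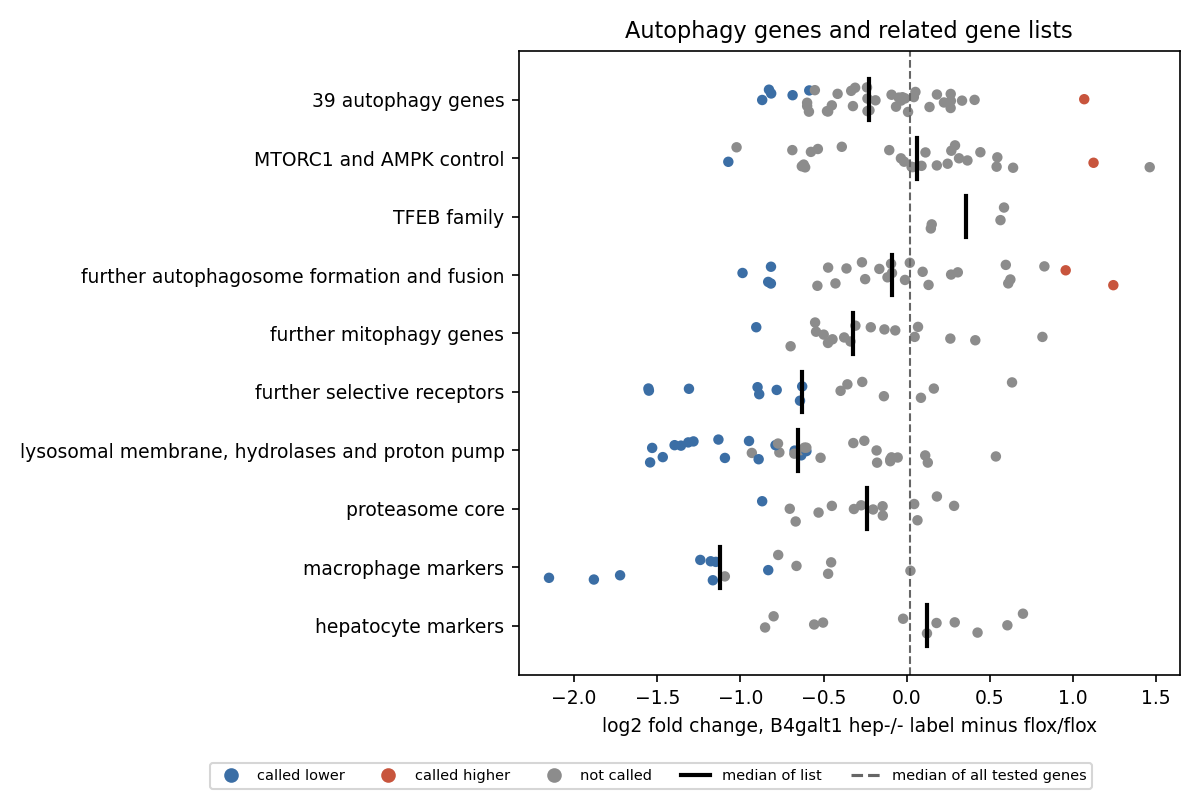
Log2 fold change of each tested gene of the 39 and of the related lists, livers labelled *B4galt1* hep-/- minus *B4galt1* flox/flox, with the median of each list and of all tested genes (0.02). The medians of the lysosomal (-0.66), selective receptor (-0.63) and macrophage (-1.12) lists lie below that of the 39 autophagy genes (-0.22).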

How the data were processed

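RNA was extracted from liver with TRIzol, and libraries were made with a VAHTS Universal V6 kit. The submitters' processing notes name fastp, HISAT2, HTSeq, DESeq2, R 3.2.0 and the build GRCm39. The annotation, the counting settings and the use of strand are not given in the sources used here, so reads of overlapping or antisense genes, and of near-identical copies, may be shared or lost. The authors deposited whole-number counts per gene and mouse, without normalization, and FPKM values of the same genes, which equal the count divided by gene length and by the library total. Both tables have 1 column per mouse, and the columns were assigned by the sample labels.

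Genes were kept by filterByExpr (minimum count 10, minimum total count 15), scaled by TMM factors, and a quasi-likelihood F-test of group over all 7 mice was run in edgeR 4.0.16 (R 4.3.3), with Benjamini-Hochberg adjustment over 15179 genes. A call required an adjusted p below 0.05 and a log2 fold change of more than 0.58 in size, the thresholds of the study. Standard errors were computed from the F statistic. Ratios of paralogues, with 0.5 added to each count, were compared by two-sided exact permutation tests. The test was run on simulated data first. At these depths 3 counts correspond to 0.0690 to 0.0987 CPM.

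The 39 genes, the related and marker lists and the tests were chosen with earlier results of these data known. Values in every mouse are given for each called gene, each gene whose groups did not overlap, and *Ulk1*, *Becn1*, *Atg5*, *Atg7*, *Map1lc3a*, *Map1lc3b*, *Gabarapl1*, *Sqstm1*, *Bnip3*, *Bnip3l* and *Pink1*. From the related and marker lists the text names called genes, up to the 5 with the largest log2 differences in each list. Tried as alternatives were DESeq2 1.42.0, scaling by RLE or by the upper quartile, looser and stricter filters (1 count in any mouse, 10 counts in every mouse), limma 3.58.1 on FPKM with a pseudocount of 1 or 0.1 on the log2 scale where FPKM reached 1 in 3 mice (a pseudocount understates changes of low genes), mitochondrially encoded genes left out, voom weighting each sample by its quality, a block for replicate number, no fold change threshold, and each mouse left out in turn. Leaving out 2 mice together and dividing summed FPKM by the TMM factor were added after seeing the data. No duplicate libraries were found.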

Additional observations from a re-analysis of the deposited data

Results flagged for a closer look

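In *B4galt1* flox/flox replicate 1, *Atg16l1* was at 37.8 CPM, while the nearest of the other controls was at 30.2 CPM, a gap of 0.945 of the group's range. In *B4galt1* flox/flox replicate 3, the summed level of the lysosomal genes was 11892 CPM and the nearest control was at 9480 CPM, a gap of 0.865 of the range. In the same replicate, the summed level of the endothelial markers was 327 CPM and the nearest control was at 119.5 CPM, a gap of 0.830 of the range. All 3 gaps exceed Dixon's 95% critical value for groups of this size. Of 80 sets of values examined in the 4 controls, these 3 stood out, and chance gives about 1 in 20.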

How the results depend on the processing

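The signs of the 6 called genes were kept under all 18 alternatives, and none of the 6 kept its call in every one that left out 1 mouse. These left 0 to 5 of the 39 genes called, 0 to 4 of them lower and 0 to 1 higher, 19 to 37 of the 166 related genes and 885 to 2396 of all genes, and moved *B4galt1* between -0.96 and -0.30. With the replicate number as a block, 1 gene was called (0 lower) and 1267 of all genes. The numbers were not taken to pair the mice. Correlations of deviations from the group mean were -0.34, -0.03 and 0.08 between mice of equal number. Between unequal numbers they ran from -0.32 to 0.49, the latter for *B4galt1* flox/flox replicate 1 with replicate 2 of the other group. So few values cannot exclude a litter or batch shared by mice of the same number. Without *B4galt1* flox/flox replicate 1 and replicate 2 labelled *B4galt1* hep-/- together, 2 genes were called (2 lower, 0 higher), 20 related genes and 1254 of all genes. Limma called 9 genes lower and 0 higher on log2(FPKM + 1), with *B4galt1* at -0.67, and 8 lower and 0 higher on log2(FPKM + 0.1). FPKM is not corrected for composition, and the median of all genes was then at -0.14 and -0.18. Of all calls, 24.5% and 23.1% were higher on these scales, against 50.5% in edgeR. The cause of these changes was not tested.

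Signs turned in the members and ratios given here. With the block they were 0.013 for *Atg101* and 0.0217 and 0.0426 for the log2 ratios of *Map1lc3a* to *Map1lc3b* and of *Gabarapl1* to *Gabarapl2*. With upper-quartile normalization they were 0.0020 for *Atg2b*, 0.0101 for *Atg14* and 0.0292 for *Wipi2*, which was at 0.0023 with RLE and 0.0079 with at least 10 counts in every mouse. On FPKM with 1 and 0.1 added they were -0.0042 and -0.0182 for *Rubcn*, -0.115 and -0.119 for *Atg3*, -0.0202 and -0.0101 for *Atg10*, and -0.0811 and -0.101 for *Atg4a*, which was at -0.0121 with at least 1 count in any mouse. Without both mice, *Rubcn* was at -0.0725 and *Atg10* at -0.0464. With 1 mouse left out, *Atg101* ranged from -0.234 to 0.0225, *Atg9a* from -0.131 to 0.0724, *Atg2b* from -0.254 to 0.186, *Atg14* from -0.251 to 0.0679, *Rubcn* from -0.148 to 0.26, *Wipi2* from -0.0528 to 0.0339 and *Atg3* from -0.144 to 0.274. *Atg10* ranged from -0.159 to 0.193, *Atg4a* from -0.12 to 0.141, *Bnip3* from -0.474 to 0.0527 and *Fundc1* from -0.331 to 0.0354. The ratios ranged from -0.219 to 0.0217 for *Map1lc3a* to *Map1lc3b*, from -0.0688 to 0.0426 for *Gabarapl1* to *Gabarapl2* and from -0.166 to 0.213 for *Bnip3* to *Bnip3l*. With 4 and 3 mice, a p above the threshold does not show that a gene did not differ.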

Other observations

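Of 16 genes that hypoxia-inducible factors are known to activate, 2 were called higher in livers labelled *B4galt1* hep-/- and none lower (median log2 difference 0.25). They were *Ankrd37* (2.90) and the histone demethylase *Kdm3a* (1.06), 12.5% of the 16 against 15.8% of all tested genes called. *Ankrd37* was at 2.82, 1.63 and 12.8 CPM in replicates 1 to 3 of that group, beside a control mean of 0.768 CPM. The summed CPM of the 16 genes was 326 to 384 in controls and 399 to 678 in the other group. Of 12 NRF2 targets, *Txnrd1* (-0.73), a thioredoxin reductase, was called lower (8.33%, median -0.37). Of 14 proteasome core genes, which degrade ubiquitinated proteins in parallel to autophagy, *Psma5* (-0.87) was called lower (7.14%, median -0.24). The HIF count was 5 without *B4galt1* flox/flox replicate 3, and 1 higher with 1 lower without replicate 3 labelled *B4galt1* hep-/-. The NRF2 and proteasome counts were 0 without *B4galt1* flox/flox replicate 2, 3 or 4 and without replicate 2 labelled *B4galt1* hep-/-, and so was the NRF2 count without replicate 3 and the proteasome count without replicate 1 of that group. The proteasome count was 2 without *B4galt1* flox/flox replicate 1 or without replicate 3 labelled *B4galt1* hep-/-.

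Among markers of other cell types, edgeR called *Lum* lower of 9 stellate and fibroblast genes and *Kdr* lower of 7 endothelial genes. Of 5 tested erythroid genes, it called *Hba-a1* higher and *Alas2* lower. The shares called were 11.1%, 14.3% and 40.0%, against 15.8% of all tested genes. The stellate count was 0 without *B4galt1* flox/flox replicate 2 or 3 and without replicate 2 or 3 labelled *B4galt1* hep-/-. The endothelial count was 0 without *B4galt1* flox/flox replicate 4 and without any one mouse of the other group, and without *B4galt1* flox/flox replicate 3 it was 1 higher and 0 lower, with 2 of the 7 differences negative instead of 5. No erythroid gene was called higher without any one mouse other than replicate 2 labelled *B4galt1* hep-/-, and 2 were without that mouse. With all mice, edgeR called none of 9 lymphocyte genes (1 at an unadjusted p under 0.05, 1 called by DESeq2), and none of 5 tested neutrophil and 6 cholangiocyte genes (0 at an unadjusted p under 0.05, 0 called by DESeq2).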
